A study of Mus musculus with 36 samples.

Results

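XY germ cells of the fetal mouse gonad were compared between the stages labelled TS24 and TS34, which the labels place during and after sexual differentiation. The samples were taken by their titles, 3 arrays at each stage, so that 6 of the 36 arrays of the series carry the comparison. The whole series has 12 groups of 3 arrays, in which each sex and each of the germ and supporting lineages was sampled at TS13, TS24 and TS34. Cells were sorted by their fluorescence after gonads had been pooled by sex and treated with trypsin for 10 minutes, DAPI marked dead cells, and 200 ng of total RNA went to Affymetrix Mouse Gene 1.0 ST arrays. In every germ cell group, XY at TS13, TS24 and TS34 and XX at TS24 and TS34 here, the cells carried a reporter of Oct4 (the gene Pou5f1) in descendants of C57BL/6NJ mice of mixed background. The XY supporting cells at TS24 and TS34, the lineage that gives Sertoli cells, came from the Tg(Sox9-cre/ERT2)1Msan/J line on C57BL/6 and so differ from the germ cells in mouse line as well as in cell type. The labels neither spell out the stage names nor say whether replicates were separate pools, and the p-values thus rest on a spread between samples that could be technical. In such bulk samples fewer cells of a type and less RNA per cell cannot be told apart.

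Fetal XY germ cells leave the pluripotent-like state of primordial germ cells, stop dividing and do not enter meiosis, while XX germ cells of the same age begin meiosis. The RNA-binding protein NANOS2 acts in XY germ cells and holds back the meiotic programme. In the arrested cells the piRNA pathway, in which PIWI proteins loaded with small RNAs recognise transposon transcripts, guides silencing and DNA methylation of transposons.

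The sort markers followed the labels on the 6 arrays. Pou5f1 lay between 10.57 and 11.30 (log2 expression, the scale of every value here), the germ cell helicase gene Ddx4 between 11.46 and 11.75 and the RNA-binding protein gene Dazl between 10.78 and 11.22. The somatic factor gene Wt1 lay between 7.24 and 7.75, against a mean of 10.87 in XY supporting cells at TS34. The arrays differed in overall level: the median over all probe sets was 6.71 to 6.79 at TS24 and 6.41, 6.78 and 6.82 at TS34, where replicate 1 had the lowest median of the series. Over the probe sets, arrays of the same stage correlated with r between 0.974 and 0.985. Arrays of different stages correlated with r between 0.966 and 0.981, so the ranges overlapped. The library labelled germ XX TS24 replicate 3 had the profile of somatic cells, with Pou5f1 at 5.07 and Wt1 at 11.19, and was left out of the fit.

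Between TS24 and TS34, 480 of 17571 genes tested (2.73%) passed limma's test at an adjusted p under 0.05 on the deposited values, 173 higher (0.985%) and 307 lower (1.75%) at TS34. Each difference below is TS34 minus TS24 in log2 units ± its standard error (SE), with 3 arrays at each stage. After quantile normalization, which gives all arrays 1 distribution, 545 genes (3.1%) passed, 303 higher (1.72%) and 242 lower (1.38%). All 173 higher genes were higher on both scales and 238 of the 307 lower genes were lower on both. The other 69 lower genes were not called after quantile normalization, 130 genes were higher and 4 lower on that scale alone, and 0 changed sides. The median of all genes tested was -0.08 as deposited and 0.01 after quantile normalization. Leaving out TS34 replicate 1 left 243 calls, 152 higher and 91 lower, leaving out TS24 replicate 2 left 312 (187 lower) and TS24 replicate 3 left 283 (167 lower). The higher calls numbered 106 without TS24 replicate 1 and 82 without TS34 replicate 3. From TS13 to TS24, a step that shares the TS24 arrays and is set beside single genes below, 263 genes (1.5%) were called in XY germ cells, 147 higher (0.837%) and 116 lower (0.66%).

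**Figure D1:**
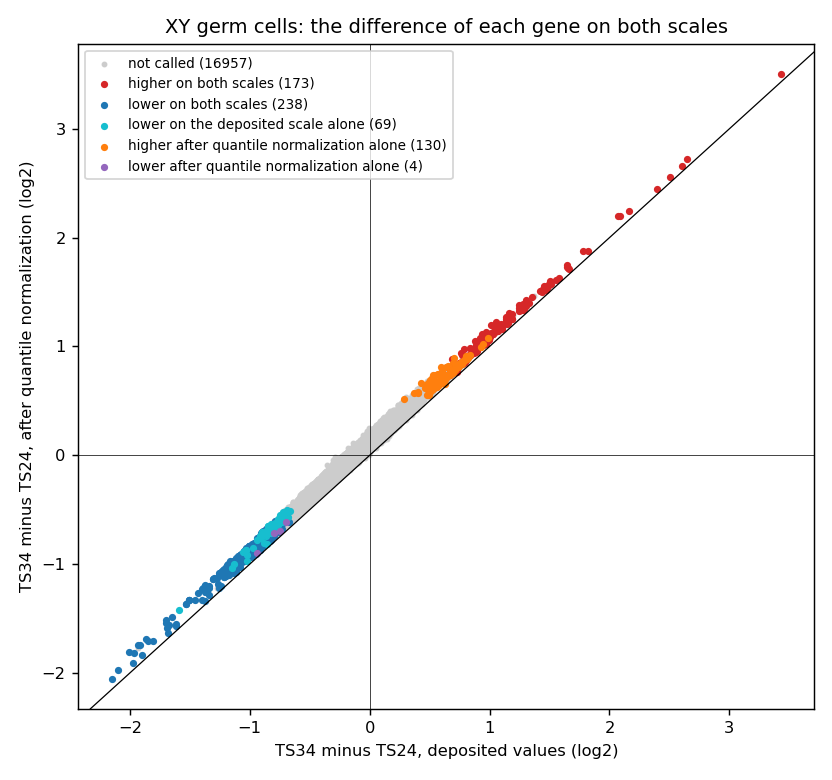
TS34 minus TS24 of each gene tested in XY germ cells, from the deposited values (x axis, log2) and after quantile normalization (y axis, log2). Most genes lie just above the diagonal, all 173 genes called higher as deposited are also called after normalization, and 69 of the 307 lower genes are called on the deposited scale alone.

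Genes of the male germ cell programme rose, among them Nanos2 and Nxf2, the top 2 of all genes named by their rise. Nanos2 rose 10.8-fold, Nxf2, a germline relative of the mRNA export factor NXF1, 6.26-fold, Gtsf1, a PIWI cofactor, 5.67-fold and Piwil4, which encodes the nuclear PIWI protein MIWI2, 3.13-fold. Of 20 male germ fate genes tested, 10 rose and 1 fell, beside 0.985% and 1.75% of all genes. Their median difference was 0.85 against -0.08 for all genes. After quantile normalization 11 rose and 1 fell, beside 1.72% and 1.38% of all genes, with a median of 0.98. Between 9 and 11 were called higher when any 1 of the 6 arrays was left out. The 3 arrays of TS34 lay wholly above the 3 of TS24 for 11 of the 20 genes and wholly below for 2, against 4.24% and 8% of all genes tested. After quantile normalization the counts were 12 and 1, against 9.87% and 7.06% of all genes. The list was chosen with results of these arrays known, so its direction is a description.

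Nanos2 measured 5.90, 7.12 and 6.26 on the 3 TS24 arrays and 9.67, 9.70 and 10.20 on the 3 TS34 arrays. The stages were far apart, and the gene was low both at TS13, at 5.57 to 6.41, and in XX germ cells at TS34, at 5.85 to 6.18. The difference was 3.43 ± 0.23 (adjusted p = 1.06e-15). Nxf2, on the X chromosome, measured 4.66, 5.18 and 4.73 at TS24 and 8.35, 6.51 and 7.66 at TS34. All TS34 arrays were higher, with replicate 2 the lowest of them, and the difference was 2.65 ± 0.26 (adjusted p = 3.62e-10). The TS24 values of Nxf2 lay below the 25th percentile of each TS24 array (5.45 to 5.54), so its difference and its fold start near background.

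Gtsf1 measured 6.16, 6.25 and 6.67 at TS24 and 8.96, 8.53 and 9.10 at TS34, a difference of 2.50 ± 0.22 (adjusted p = 9.88e-12). The stages did not overlap, and the 3 arrays of each stage lay close together. Piwil4 measured 6.26, 5.79 and 5.87 at TS24 and 7.77, 7.23 and 7.84 at TS34, a difference of 1.64 ± 0.20 (adjusted p = 1.99e-07). Replicate 2 was again the lowest of the TS34 arrays for both genes, and it still lay above every TS24 array. None of these 4 genes changed between TS13 and TS24 by limma's test, with differences of -0.16 to 0.67 and adjusted p of 0.14 to 0.92.

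**Figure D2:**
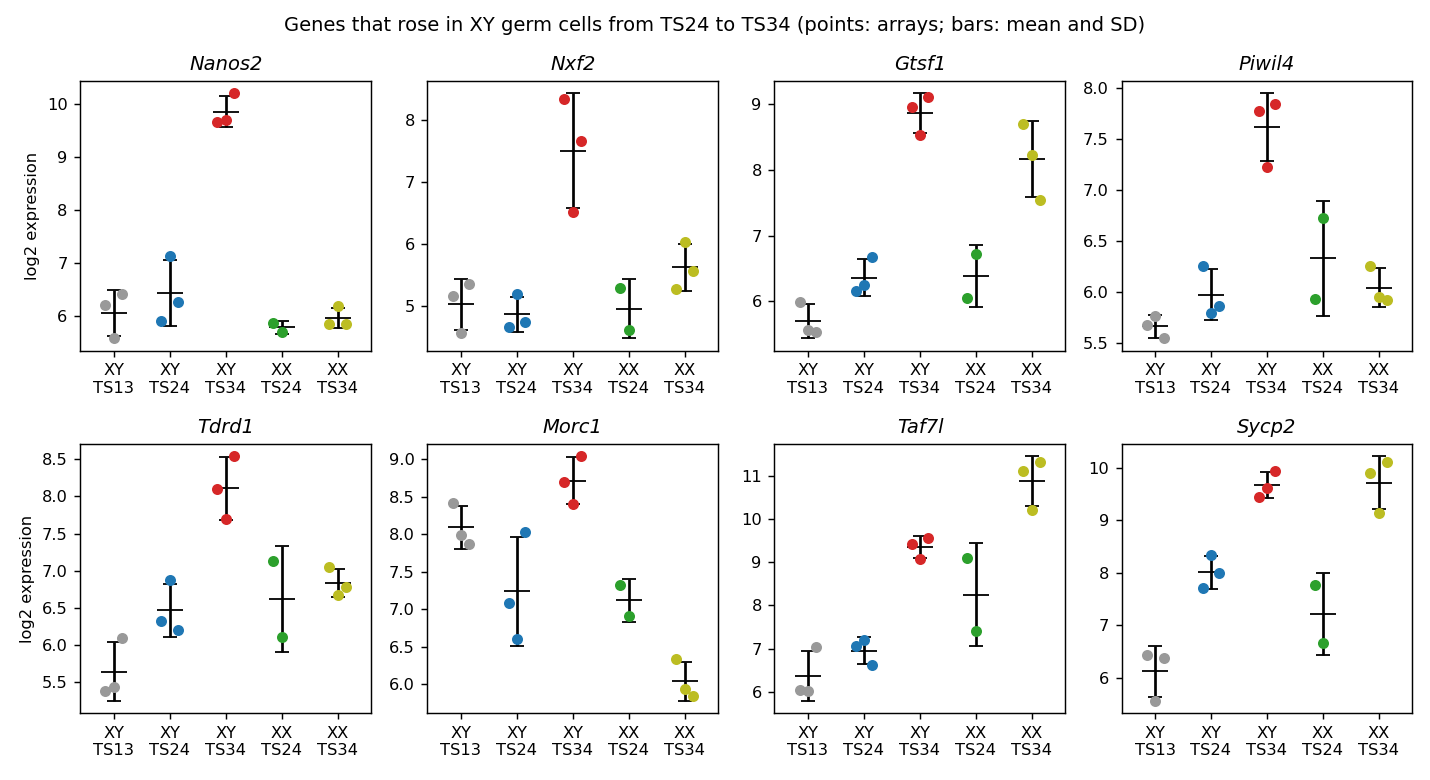
Log2 expression of 8 genes that rose, in XY germ cells at TS13, TS24 and TS34 and XX germ cells at TS24 (2 arrays) and TS34, with a point per array and bars for the mean and SD. Nanos2 stands at 9.67 to 10.20 in XY TS34 alone of the groups drawn, while Gtsf1, Taf7l and Sycp2 are also high in XX TS34.

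The RefSeq promoters of 4 risers are shown because they differ in CpG content and in the E-box CACGTG, a palindrome read the same on both strands. Each line gives the 250 bases before the first-listed start, 5' to 3', in assembly GRCm38.p6. Capitals mark CACGTG in Nxf2 (chrX:134964755-134965004, minus strand), Taf7l (chrX:134476491-134476740, minus strand) and Tdrd1 (chr19:56825959-56826208, plus strand), and CCAAT or its reverse complement ATTGG in Nanos2 (chr7:18987274-18987523, plus strand).
Nanos2: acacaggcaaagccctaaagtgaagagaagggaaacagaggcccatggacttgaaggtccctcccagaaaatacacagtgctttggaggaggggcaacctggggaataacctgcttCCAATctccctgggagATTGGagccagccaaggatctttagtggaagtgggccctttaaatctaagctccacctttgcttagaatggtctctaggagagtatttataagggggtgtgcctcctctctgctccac
Nxf2: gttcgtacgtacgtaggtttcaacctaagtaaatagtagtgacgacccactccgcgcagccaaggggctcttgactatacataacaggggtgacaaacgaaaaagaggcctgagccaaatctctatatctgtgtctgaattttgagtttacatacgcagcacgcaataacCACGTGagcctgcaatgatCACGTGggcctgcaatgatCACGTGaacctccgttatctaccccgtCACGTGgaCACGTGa
Taf7l: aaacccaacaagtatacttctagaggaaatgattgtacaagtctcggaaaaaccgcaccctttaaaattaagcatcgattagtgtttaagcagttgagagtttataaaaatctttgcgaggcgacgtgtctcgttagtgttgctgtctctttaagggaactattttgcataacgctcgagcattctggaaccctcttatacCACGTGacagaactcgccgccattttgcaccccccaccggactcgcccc
Tdrd1: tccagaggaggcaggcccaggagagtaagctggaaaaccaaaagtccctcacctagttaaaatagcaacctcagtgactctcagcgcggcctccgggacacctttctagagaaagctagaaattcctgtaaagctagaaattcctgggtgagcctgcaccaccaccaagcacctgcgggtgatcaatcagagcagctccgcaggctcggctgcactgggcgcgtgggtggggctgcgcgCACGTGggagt
The Nanos2 window holds 0 CpG and 2 CCAAT boxes, 1 on each strand, and CCAAT on either strand is found in 35.5% of the 13783 windows of tested genes. The Nxf2 window holds 16 CpG and 5 CACGTG. Of all 13783 windows, 2 hold at least 5 CACGTG, those of Nxf2 and Mfsd1, and 7.64% hold at least 1. Taf7l, whose window lies 488 kb from that of Nxf2, has 1 CACGTG at position -49 from its start and Tdrd1 has 1 at -11. For the 15 largest rises and falls, genes on some chromosomes were left out of the window counts and may still have one. Of the 15 largest rises, 14 windows were counted and 3 of these held CACGTG (Nxf2, Taf7l and Tdrd1), and of the 15 largest falls 11 were counted and 1 held it (Abracl). Among all genes called higher, 15 of 142 windows (10.6%) held it, and among those called lower 13 of 240 (5.42%), or 5 of 187 (2.67%) for the genes called lower on both scales. The windows of Gtsf1 and Piwil4 hold no match to CACGTG, to CCAAT, to the E2F-like GCGGGAA, to the cAMP-response element TGACGTCA or to the nuclear receptor half-site AGGTCA, on either strand.

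Part of the piRNA pathway rose. Of 29 piRNA and transposon control genes tested, 8 rose and 0 fell (10 and 0 after quantile normalization), with a median difference of 0.21 as deposited and 0.34 after normalization. Of all genes, 0.985% were called higher as deposited and 1.72% after normalization. This list too was chosen with results of these arrays known. Its risers include the markers Nxf2, Gtsf1 and Piwil4, and it shares members with the male germ fate list. Between 7 and 9 were called higher when any 1 of the 6 arrays was left out. Tdrd1, a Tudor-domain scaffold of the piRNA granule, measured 6.33, 6.87 and 6.19 at TS24 and 8.09, 7.70 and 8.54 at TS34, without overlap, and rose by 1.65 ± 0.23 (adjusted p = 3.88e-06). Morc1, a chromatin protein of transposon silencing in male germ cells, measured 7.08, 6.60 and 8.03 at TS24 and 8.69, 8.41 and 9.04 at TS34, and rose by 1.48 ± 0.23 (adjusted p = 2.39e-05). Its spread at TS24 was wide, with replicate 3 of that stage the nearest to the TS34 arrays.

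Mael, the gene of the granule protein Maelstrom, measured 9.57, 9.80 and 9.75 at TS24 and 10.50, 10.54 and 11.24 at TS34, a difference of 1.05 ± 0.22 (adjusted p = 0.00237). Its call rested on TS34 replicate 3, without which the difference was 0.81 (adjusted p = 0.0576). The other called members were Tdrd5, a Tudor-domain gene, at 1.01 ± 0.22 (adjusted p = 0.00422), and the helicase gene Tdrd9, at 1.00 ± 0.21 (adjusted p = 0.00191), beside Nxf2, Gtsf1 and Piwil4. Ddx4, the helicase of the granule, differed by 0.12 ± 0.27 and Piwil2, the cytoplasmic PIWI gene, by 0.02, with adjusted p of 0.923 and 0.989.

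The remaining risers of the male fate list were a homeobox, a deubiquitinase and a surface protein gene. Hesx1, the homeobox gene, measured 7.36, 8.08 and 8.14 at TS24 and 8.79, 9.72 and 9.53 at TS34, and rose by 1.48 ± 0.22 (adjusted p = 1.22e-05) after a rise of 2.16 from TS13 to TS24. Usp26, an X-linked deubiquitinase gene of the germ line, rose by 1.33 ± 0.23 (adjusted p = 1.26e-04), from 7.99, 8.19 and 8.34 to 9.24, 9.43 and 9.83. Both genes had all 3 TS34 arrays above all TS24 arrays. Tex101, a germ cell surface glycoprotein gene, rose by 1.07 ± 0.22 (adjusted p = 0.0019). Nanos3, which sustains primordial germ cells, passed after quantile normalization alone, with 0.69 ± 0.22 as deposited (adjusted p = 0.0785) and 0.80 after normalization (adjusted p = 0.0106). The member that fell was Lhx1, a LIM homeobox gene, at -0.79 ± 0.23 (adjusted p = 0.0424), after a rise of 1.41 from TS13 to TS24. Its call was lost in 5 of the 6 fits that left out 1 array, with differences of -0.84 to -0.55.

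Of 32 genes of the meiosis list tested, 2 rose and 1 fell, beside 0.985% and 1.75% of all genes, and the median difference was -0.03. The gene that fell was Ugt8a, a galactosyltransferase gene described with the XX step. Its call was lost in 5 of the 6 fits that left out 1 array. The 2 that rose encode parts of the synaptonemal complex, which pairs chromosomes in meiosis. Sycp2 measured 7.71, 8.34 and 7.99 at TS24 and 9.45, 9.62 and 9.93 at TS34, and rose by 1.65 ± 0.24 (adjusted p = 8.35e-06). Sycp1 measured 7.88, 9.06 and 8.12 at TS24 and 9.79, 9.51 and 10.12 at TS34, and rose by 1.45 ± 0.25 (adjusted p = 9.74e-05). Both had also risen from TS13 to TS24, by 1.89 and 1.59, and neither overlapped between TS24 and TS34. Stra8, the gene that starts the meiotic programme, stayed between 5.12 and 5.85 on the 6 arrays, with a difference of -0.14 ± 0.22 (adjusted p = 0.861). In XX germ cells over the same stages 23 of the 32 rose and 0 fell, beside 1.86% and 7.01% of all genes. Stra8 rose there by 2.75 ± 0.24, and the median of the list was 1.33. The test of the difference between the XY and the XX step was passed by 14 of the 32, all lower in XY, beside 0.398% of all genes lower by that test. The meiosis list too was chosen with results of these arrays known.

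**Figure D3:**
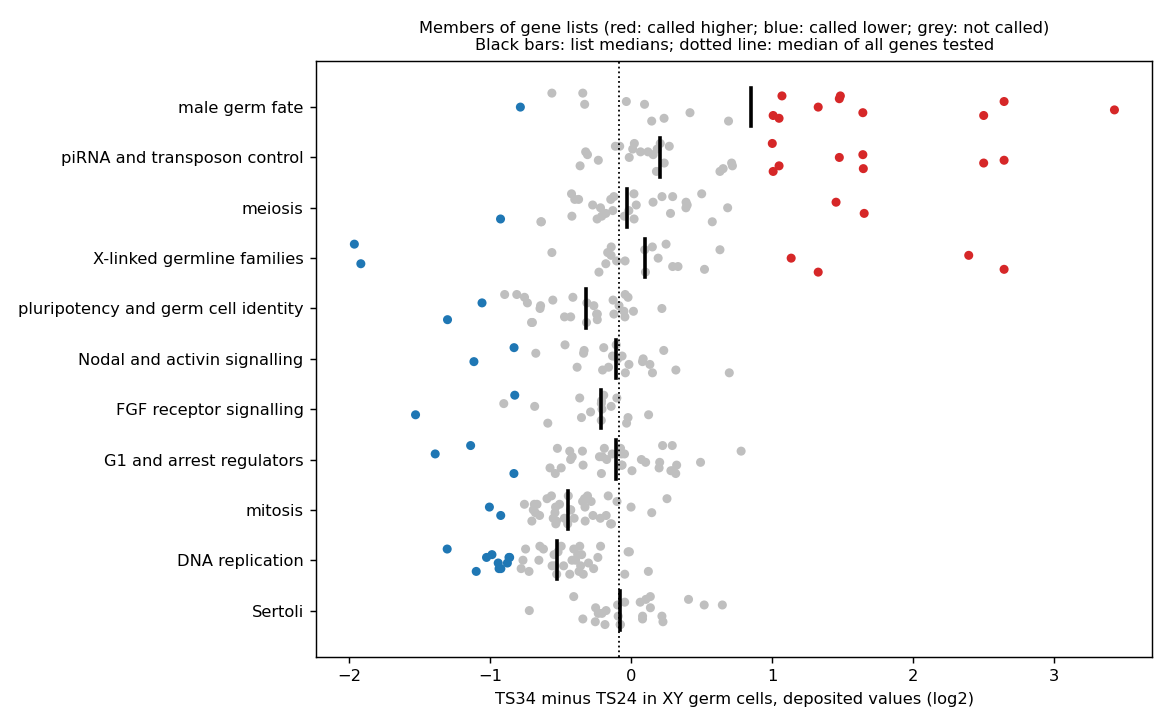
TS34 minus TS24 in XY germ cells (x axis, log2, deposited values) for the tested members of 11 gene lists, with called members in colour, black bars at list medians and a dotted line at the median of all genes, -0.08. Male germ fate has its median at 0.85, DNA replication at -0.52 and the Sertoli markers have 0 members called.

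The X chromosome held 22 of the 173 genes that rose (12.7%) and 17 of the 307 that fell (5.54%), against 608 of the 17571 tested (3.46%). After quantile normalization it held 28 of 303 higher genes (9.24%). Its share of the genes called higher over the same stages was 29 of 327 (8.87%) in XX germ cells and 4 of 28 (14.3%) in XY supporting cells, also above the 3.46% of all genes. The median difference of all X-linked genes was -0.07 as deposited and 0.01 after normalization, beside -0.08 and 0.01 for the other genes. Gm1141, a predicted gene, measured 6.07, 6.92 and 6.28 at TS24 and 9.23, 8.55 and 9.30 at TS34, and rose by 2.60 ± 0.22 (adjusted p = 3.61e-12). Taf7l, a germ cell relative of a general transcription factor subunit, measured 7.06, 7.19 and 6.61 at TS24 and 9.42, 9.06 and 9.56 at TS34, and rose by 2.40 ± 0.30 (adjusted p = 4.39e-07). Neither gene overlapped between the stages by a wide margin.

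Dcaf8l, a relative of the ubiquitin ligase receptor gene Dcaf8, rose by 2.16, Xkrx, of the XK family of membrane proteins, by 1.78, and Zmym3, a zinc finger gene, by 1.58. Ogt, which encodes the enzyme that adds O-GlcNAc to proteins, rose least of the X-linked genes named, from 10.78, 10.37 and 10.31 to 10.89, 11.11 and 11.53, by 0.69 ± 0.19 (adjusted p = 0.0272), and its call was lost in 3 of the 6 fits that left out 1 array, down to 0.51 (adjusted p = 0.204) without TS34 replicate 3. Of 23 X-linked germline family genes tested, 4 rose (Nxf2, Taf7l, Usp26 and Mageb4, a MAGE family gene that rose by 1.14) and 2 fell, with a median of 0.10. Of all genes, 0.985% were called higher and 1.75% lower. Of the 22 X-linked risers, 2 also rose in XX germ cells, 1 fell there, and 9 rose more in XY than in XX by the test of the difference.

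The 2 genes of that list that fell are homeobox genes of the X-linked Rhox cluster. Rhox9 measured 12.63, 12.45 and 12.87 at TS24 and 10.19, 11.62 and 10.25 at TS34, and fell by 1.96 on the log2 scale (SE 0.34, adjusted p = 1.67e-04). Rhox6 measured 11.56, 11.60 and 11.94 at TS24 and 9.25, 10.36 and 9.73 at TS34, and fell by 1.92 (SE 0.25, adjusted p = 1.58e-06). Replicate 2 was the highest TS34 array for both, and still below every TS24 array. Rhox9 and Rhox6 are close relatives, and whether their probes share signal was not tested. Outside the list, Rhox8 was also called lower on both scales, at -1.04 (adjusted p = 0.0159), and its XX step was -1.27.

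Outside these lists, the largest rises included a zinc finger gene and several enzymes. Bnc2, of the basonuclin zinc finger family, measured 8.69, 8.11 and 8.67 at TS24 and 10.33, 10.78 and 10.63 at TS34, and rose by 2.09 ± 0.24 (adjusted p = 3.16e-08) after a rise of 1.96 from TS13 to TS24. Ptgr1, a prostaglandin reductase gene, measured 8.68, 8.53 and 9.03 at TS24 and 10.85, 10.44 and 11.16 at TS34, and rose by 2.07 ± 0.22 (adjusted p = 3.09e-09). Neither gene overlapped between the stages. Ptgr1 is also high in XY supporting cells, at a mean of 11.99 at TS34, while 0 of 25 Sertoli markers were called in the germ cells and their mean level was at most 7.01 at TS24 and lay between 6.54 and 7.15 at TS34, against 9.63 to 9.77 in XY supporting cells at TS34. The part of supporting cells in the rise of Ptgr1 was not tested. Cbr3, a carbonyl reductase gene, rose by 1.82, Klf12, a Krüppel-like repressor gene, by 1.66, Cers6, a ceramide synthase gene, by 1.55, and Armcx4, an X-linked armadillo repeat gene, by 1.44. Crabp2, which binds retinoic acid in the cell, rose by 1.01 (adjusted p = 0.0242), and its call was lost in 5 of the 6 fits that left out 1 array, with 0.75 the lowest value. It was the 1 called of 20 retinoic acid genes (2 after quantile normalization, with Aldh1a2), beside 2.73% of all genes (3.1% after normalization).

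Part of the DNA replication list fell. Of 42 replication genes tested 10 fell and 0 rose, 41 of the 42 differences were below 0, against 63.4% of all genes, and the median was -0.52, against -0.08 for all genes. After quantile normalization 8 fell, 38 were below 0, against 48.1% of all genes, and the median was -0.38. Of all genes, 1.75% were called lower as deposited and 1.38% after normalization. The arrays of TS34 lay wholly below those of TS24 for 19 of the 42, or 16 after normalization, against 8% and 7.06% of all genes. Rrm2, a subunit of ribonucleotide reductase, which makes the building blocks of DNA, measured 10.44, 10.07 and 10.53 at TS24 and 8.69, 9.32 and 9.12 at TS34. All TS34 arrays were lower, and the fall was 1.31 on the log2 scale (SE 0.24, adjusted p = 3.04e-04).

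Orc1, of the origin recognition complex, measured 9.49, 9.85 and 9.59 at TS24 and 8.31, 8.82 and 8.51 at TS34, and fell by 1.10 (adjusted p = 0.00258). Mcm4, of the replicative helicase, measured 10.52, 10.69 and 10.62 at TS24 and 9.40, 9.63 and 9.72 at TS34, and fell by 1.03 (adjusted p = 0.00512). Both genes were separated by stage, with TS34 replicate 1 lowest. The loading factor gene Cdc6 fell by 0.99, the licensing inhibitor gene Gmnn by 0.94 and the flap endonuclease gene Fen1 by 0.94. Gmnn was not called after quantile normalization (adjusted p = 0.0507). Each of the 3 lost its call in 3 of the 6 fits that left out 1 array, with adjusted p of up to 0.148 for Cdc6, 0.266 for Gmnn and 0.187 for Fen1. The size of this count rests on 1 array: without TS34 replicate 1, 2 of the 42 were called (3 on the quantile scale), the median was -0.35 (-0.32 on the quantile scale) and 38 differences were below 0 (37 on the quantile scale). The count was 6 without TS24 replicate 3 and between 7 and 14 without each of the others. Mcm4 differed by -0.94 (adjusted p = 0.0543) without TS34 replicate 1.

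Of 36 genes of G1 and arrest control, 3 fell and 0 rose, with a median of -0.10, and after quantile normalization 3 fell and 1, Rb1, rose. Of all genes, 1.75% were called lower as deposited, and 1.38% lower and 1.72% higher after normalization. E2f8, a repressor of the E2F family, measured 9.95, 9.57 and 9.67 at TS24 and 7.89, 8.87 and 8.27 at TS34, and fell by 1.39 (adjusted p = 1.68e-04). Ccne1, the gene of cyclin E1, measured 9.35, 9.30 and 9.74 at TS24 and 8.21, 8.58 and 8.18 at TS34, and fell by 1.14 (adjusted p = 0.00237). Both had every TS34 array below every TS24 array. E2f7 fell by 0.83 (adjusted p = 0.0252) and lost its call in 4 of the 6 fits that left out 1 array, with differences of -0.87 to -0.71 where it was lost. The inhibitor gene Cdkn1b stood at 7.42, 9.42 and 8.71 at TS24 and 9.21, 9.16 and 9.52 at TS34, with overlapping stages and a difference of 0.78 ± 0.33 (adjusted p = 0.285).

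Of 39 mitosis genes 2 fell and 0 rose, beside 1.75% of all genes called lower. Of the 39 differences 37 were below 0 and the median was -0.45 (31 and -0.30 after quantile normalization). Among all genes 63.4% of differences were below 0 as deposited and 48.1% after normalization. Mybl2, the MYB factor of dividing cells, measured 10.51, 10.24 and 10.15 at TS24 and 8.98, 9.20 and 9.70 at TS34, and fell by 1.01 (adjusted p = 0.00199). Cenpa, the centromeric histone gene, measured 10.11, 10.05 and 10.39 at TS24 and 8.82, 9.49 and 9.45 at TS34, and fell by 0.93 (adjusted p = 0.0159). Neither overlapped between the stages. The call of Cenpa was lost without TS34 replicate 1, at -0.71 (adjusted p = 0.231), and without TS24 replicate 3, at -0.82 (adjusted p = 0.113). Mki67, a marker of dividing cells, differed by -0.31 (adjusted p = 0.633) and Cdk1, the mitotic kinase gene, by -0.51 (adjusted p = 0.357). The count was 5 without TS34 replicate 2, 1 without TS34 replicate 1, 1 without TS24 replicate 3 and 0 with all 36 arrays.

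**Figure D4:**
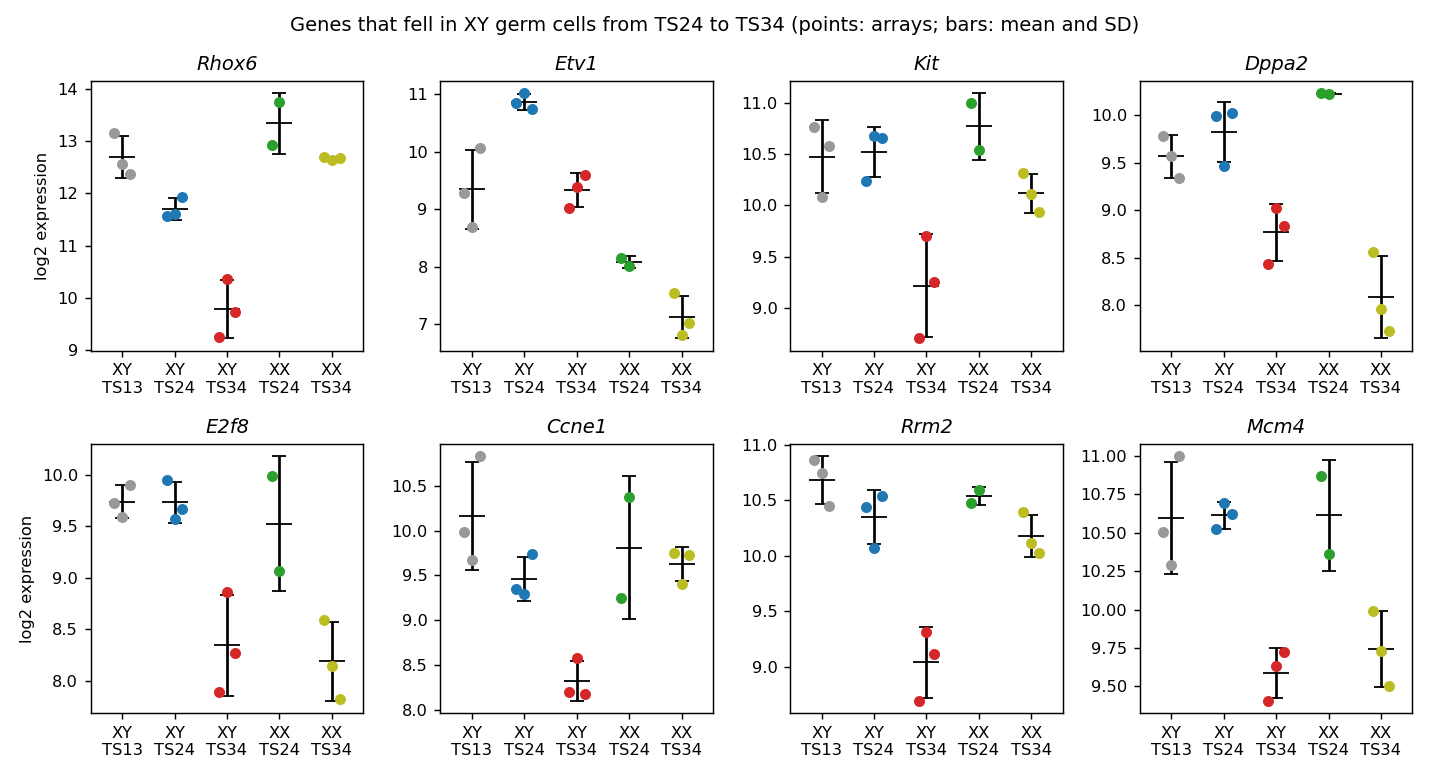
Log2 expression of 8 genes that fell, in XY germ cells at TS13, TS24 and TS34 and XX germ cells at TS24 (2 arrays) and TS34, with a point per array and bars for the mean and SD. In XY all 3 TS34 arrays lie below the 3 TS24 arrays in every panel, and Rhox6 stands at 9.25 to 10.36 in XY TS34 against 12.64 to 12.70 in XX TS34.

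A few genes of the earlier germ cell state fell. Of 29 pluripotency and germ cell identity genes tested 2 fell and 0 rose, the median was -0.32 and 27 differences were below 0 (-0.20 and 23 after quantile normalization). Among all genes 1.75% were called lower, and 63.4% of differences were below 0 as deposited and 48.1% after normalization. Kit, the receptor for the growth factor KITL, measured 10.24, 10.67 and 10.66 at TS24 and 8.70, 9.70 and 9.25 at TS34, and fell by 1.30 (SE 0.22, adjusted p = 6.46e-05), 2.47-fold. Dppa2, a chromatin factor gene of pluripotent cells, measured 9.99, 9.46 and 10.02 at TS24 and 8.44, 9.03 and 8.83 at TS34, and fell by 1.06 (adjusted p = 0.0019). Both genes had all TS34 arrays below all TS24 arrays, and both calls held in each fit that left out 1 of the 6 arrays. Nanog (-0.81, adjusted p = 0.0533), Sox2 (-0.71, adjusted p = 0.0625), Tfap2c (-0.90, adjusted p = 0.0632) and Zfp42 (-0.76, adjusted p = 0.0564) did not pass, and Pou5f1 differed by -0.04 ± 0.25 (adjusted p = 0.978). In XX germ cells 12 of the 29 fell over the same stages, beside 7.01% of all genes called lower there, with a median of -0.70. The count was 0 in XY with all 36 arrays in the fit, and 4 without TS34 replicate 3 and 6 without TS34 replicate 2.

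Of 23 Nodal and activin signalling genes 2 fell and 0 rose, beside 1.75% of all genes called lower. Both that fell are parts of the Nodal pathway. The coreceptor gene Tdgf1 measured 10.59, 10.68 and 10.99 at TS24 and 8.94, 9.83 and 10.14 at TS34, and fell by 1.12 (adjusted p = 0.00627). The transcription factor gene Foxh1 measured 7.46, 6.94 and 7.49 at TS24 and 5.94, 6.97 and 6.49 at TS34, where replicate 2 reached into the TS24 range, and fell by 0.83 (adjusted p = 0.0163). Neither was called without TS34 replicate 1, at -0.77 (adjusted p = 0.198) and -0.57 (adjusted p = 0.298) respectively, and neither without TS24 replicate 3 (adjusted p = 0.0624 and 0.118). After quantile normalization Tgif1, a repressor of the pathway, was also called, higher. The ligand gene Nodal differed by -0.02 ± 0.20 (adjusted p = 0.991). Of 18 FGF receptor signalling genes 2 fell, both ETS factors of the response to FGF, again beside 1.75% of all genes. Of the 18 differences 17 were below 0, with a median of -0.21. After quantile normalization 2 fell, 13 were below 0 and the median was -0.11. Among all genes 63.4% of differences were below 0 as deposited and 48.1% after normalization. Etv1 measured 10.84, 11.01 and 10.75 at TS24 and 9.02, 9.40 and 9.59 at TS34, and fell by 1.53 (SE 0.25, adjusted p = 3.66e-05) after a rise of 1.52 from TS13 to TS24. Etv4 fell by 0.83 (adjusted p = 0.0161), and was not called in 4 of the 6 fits that left out 1 array, with -0.54 (adjusted p = 0.313) without TS34 replicate 1.

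The largest falls outside the lists took in genes of varied function. The uncharacterised gene 1700019D03Rik fell by 2.15 (adjusted p = 2.64e-05), from 8.28, 8.51 and 8.32 to 5.67, 7.36 and 5.63. Vpreb1, a surrogate light chain gene of B cell precursors, fell by 2.10 (adjusted p = 0.00156), from 8.04, 8.78 and 8.88 to 6.23, 6.58 and 6.60. The vesicle SNARE gene Vamp8 fell 4.01-fold (adjusted p = 1.89e-05), from 10.88, 10.01 and 10.24 to 7.29, 9.18 and 8.64. In all 3 genes the stages did not overlap, and TS34 replicate 2 was the highest TS34 array for 1700019D03Rik and Vamp8. Eid3 fell by 1.98 (adjusted p = 8.82e-04), although its nearest arrays, TS24 replicate 2 at 6.63 and TS34 replicate 2 at 6.61, almost met. The other 9 largest falls that are not Rhox genes, from Lrrc34 at -1.93 to Scgn, a calcium-binding protein gene, at -1.69, included Cds1, of phospholipid synthesis (-1.81), the homeobox gene Mkx (-1.70) and the kinase gene Nuak1 (-1.69). Of 23 glycolysis genes 2 fell, beside 1.75% of all genes called lower. They were the phosphofructokinase gene Pfkp, by 1.65 (adjusted p = 8.38e-06), and Pdk4, by 1.11 (adjusted p = 0.0368). Pdk4 lost its call in 5 of the 6 fits that left out 1 array, with -0.82 (adjusted p = 0.404) without TS34 replicate 1.

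Over the genes called after quantile normalization, TS34 replicate 2 was the TS34 array nearest to the TS24 mean for 180 of the 303 higher genes and 133 of the 242 lower genes. The median shift from TS24 was 0.76 on that array, 0.99 on replicate 1 and 0.93 on replicate 3 for the higher genes, and -0.80, -0.97 and -0.90 for the lower genes. Among these called genes replicate 2 thus lay nearer to TS24 than the other TS34 arrays in both directions. Over all probe sets it did not: replicate 3 had the highest r with each TS24 array, 0.975 to 0.981, against 0.966 to 0.975 for replicate 2.

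XX germ cells crossed the same 2 stages with 1559 genes called (8.87%), 327 higher (1.86%) and 1232 lower (7.01%), and 816 higher and 799 lower after quantile normalization, from 2 arrays at TS24 and 3 at TS34. Of the 173 genes that rose in XY, 36 rose and 6 fell in XX and 131 were not called there, and the median difference of the 173 was 0.97 in XY and 0.23 in XX. Of the 307 that fell in XY, 125 fell and 1 rose in XX, with medians of -0.94 and -0.65. The test of the difference between the steps called 201 genes (1.14%), 131 with the higher XY step (0.746%) and 70 with the lower (0.398%), and 309 after quantile normalization (1.76%), 179 higher (1.02%) and 130 lower (0.74%). It called 40 of the 173 XY risers as higher and 2 as lower, and of the 307 XY fallers 8 as lower and 1 as higher. This count moved with single arrays, to 60 without XX TS24 replicate 2, 79 without XX TS34 replicate 3, 113 without XY TS24 replicate 2, 114 without XY TS34 replicate 3, 322 without XX TS34 replicate 1 and 436 without XY TS34 replicate 1, of which 381 were higher.

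**Figure D5:**
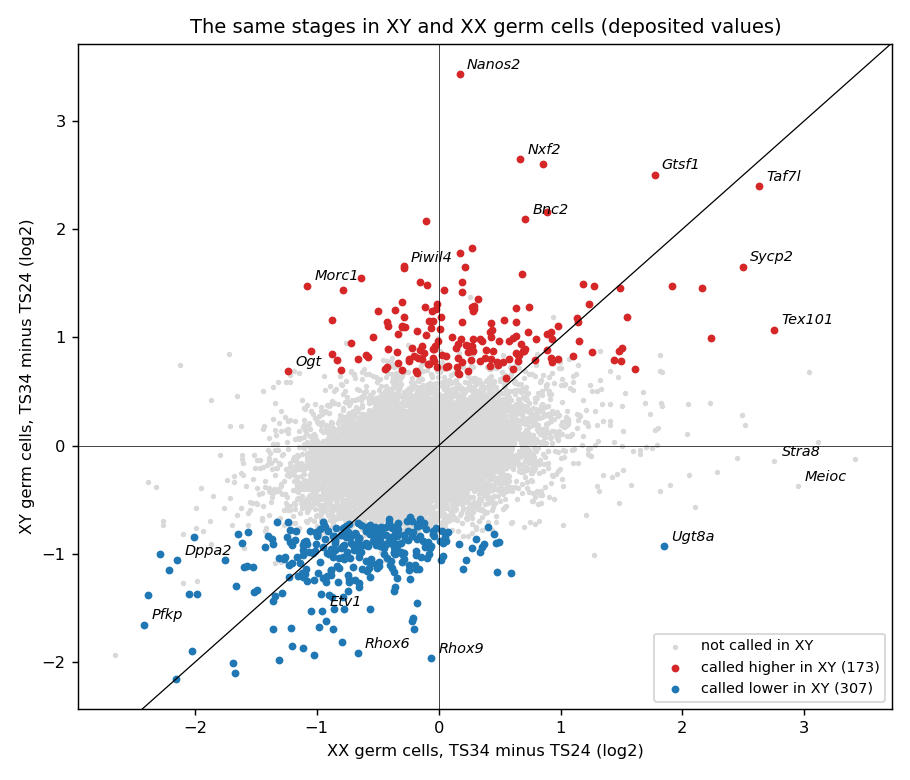
TS34 minus TS24 of each gene in XX (x axis, log2) and XY germ cells (y axis, log2) on the deposited values, with genes called in XY in colour and the diagonal marking equal differences. Nanos2 stands at 3.43 in XY and 0.17 in XX, while Taf7l (2.40 and 2.63) lies close to the diagonal.

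Of the 20 male fate genes, 9 had the higher and 2 the lower XY step by this test, beside 0.746% and 0.398% of all genes. Their median was 0.85 in XY and -0.26 in XX. Of the 29 piRNA genes 5 had the higher XY step and 0 the lower, while the list's median was the same size in both sexes, 0.21 in XY and 0.21 in XX. The XY step exceeded the XX step by 3.26 for Nanos2 (adjusted p = 9.34e-09), 2.56 for Morc1 (3.54e-06), 1.98 for Nxf2 (0.00222), 1.93 for Piwil4 (5.33e-05), 1.58 for Hesx1 (0.00516) and 1.43 for Tdrd1 (0.0196). Of the 11 fits that left out 1 germ cell array, Tdrd1 lost this call in 4, with 0.92 (adjusted p = 0.219) without XX TS24 replicate 1, and Hesx1 in 1, with 1.32 (adjusted p = 0.131) without XX TS24 replicate 2, while the other 4 kept theirs. Morc1 fell in XX by 1.08, from 7.32 and 6.91 to 6.33, 5.94 and 5.84, so that the 2 sexes moved apart. Gtsf1 rose by 1.77 in XX, from 6.05 and 6.72 to 8.70, 8.23 and 7.55, and the excess of the XY step, 0.73, did not pass (adjusted p = 0.357). Taf7l rose by 2.63 in XX and its difference of steps was -0.23 (adjusted p = 0.915). Tex101 rose in both, by 1.07 in XY and 2.75 in XX, with a difference of steps of -1.68 (adjusted p = 0.00253) that was -1.54 (adjusted p = 0.0535) without XX TS24 replicate 2. Ogt rose in XY and fell by 1.24 in XX, a difference of steps of 1.93 (adjusted p = 1.49e-05). Ugt8a, a galactosyltransferase gene, fell by 0.93 in XY (adjusted p = 0.0378), to 6.12, 7.75 and 7.10 at TS34, and rose by 1.85 in XX, a difference of steps of -2.78 (adjusted p = 9.17e-06). Its fall in XY lost its call in 5 of the 6 fits that left out 1 array, with -0.49 (adjusted p = 0.612) without TS34 replicate 1.

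XY supporting cells crossed the same stages with their own changes, and the germ step differed from the supporting step for 156 genes (0.888%), 109 higher (0.62%) and 47 lower (0.267%) in germ cells. After quantile normalization the counts were 114 and 96. Leaving out XY germ TS34 replicate 3 gave 103, of which 62 were higher. The lower calls numbered 14 without XY germ TS34 replicate 1, 88 without its replicate 2, 31 without XY germ TS24 replicate 3, 31 without supporting TS24 replicate 2 and 24 without supporting TS34 replicate 3. The difference of steps was 3.49 for Nanos2 (adjusted p = 2.75e-10), 2.83 for Nxf2, 2.40 for Gtsf1 and 1.82 for Piwil4 (adjusted p = 7.22e-05), close to their steps in germ cells. Id3, a target of BMP signalling, had a difference of steps of -1.84 (adjusted p = 8.93e-04), with a germ step of -0.86 (adjusted p = 0.0314). That germ step, the 1 call among 18 BMP and ID response genes, was lost in 4 of the 6 fits that left out 1 array, with -0.58 (adjusted p = 0.381) without TS24 replicate 2. Of all genes, 2.73% were called in the germ step.

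Markers of other cells are given beside the 2.73% of all genes called (3.1% after quantile normalization). At that share a list of 8 to 25 genes can hold 0 calls without differing from other genes. Of the Sertoli (25 tested), pregranulosa (12), steroidogenic (8), interstitial and stromal (13) and macrophage (11) lists 0 members were called on either scale. The endothelial list (13 tested) had 1 member lower, the adhesion gene Pecam1, which fell by 0.97 from 10.00, 10.27 and 10.34 to 8.91, 9.74 and 9.05 and stood at 6.76 in XY supporting cells at TS34. The erythroid list (8 tested) had 1 lower, the transferrin receptor gene Tfrc, which fell by 0.94, and the mesonephric list (9 tested) had 1 lower, Lhx1. Pecam1 lost its call in 3 and Tfrc in 2 of the 6 fits that left out 1 array, at -0.81 (adjusted p = 0.119) and -0.82 (adjusted p = 0.0978) without TS34 replicate 1. The embryonic globin gene Hbb-y stood at 8.76 to 9.24 at TS24 and 6.56 to 7.40 at TS34 without passing the test (adjusted p = 0.202), the mean of the erythroid list ran from 7.24 to 7.38 at TS24 and 6.55 to 7.11 at TS34, and their part in the results was not tested.

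The remaining lists are also given beside the share of all genes called, 2.73% as deposited and 3.1% after quantile normalization. Oxidative phosphorylation (37 tested), cholesterol synthesis (17), ribosomal proteins (24), Y-linked genes (7) and the X-inactivation centre (1) had 0 called on either scale. DNA methylation (19 tested), apoptosis (25) and dissociation stress (13) had 0 called as deposited and 1 higher after quantile normalization, Tet2, Pmaip1 and Ier3, and Dnmt3l, the cofactor of germline methylation, was below the filter on low values. Germ cell RNA binding (26 tested) had Nanos2 higher, with Nanos3 added by quantile normalization. WNT targets (12 tested) had the receptor gene Lgr4 lower at -0.90, chromatin repressors (30) the deacetylase gene Hdac1 lower at -0.79, and adhesion and migration (21) Kit and the claudin gene Cldn7 lower, the latter at -0.90. Of 27 imprinted genes, Peg3 (-0.76) and Phlda2 (-0.87) were lower, and Peg3 was not called after quantile normalization (adjusted p = 0.0751). Without TS34 replicate 1 the calls of Lgr4 (adjusted p = 0.144), Hdac1 (0.294), Cldn7 (0.136), Peg3 (0.185) and Phlda2 (0.136) were lost.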

How the data were processed

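RNA of sorted cells was measured on 1 array per sample. The deposited values are log2 expression per probe set, summarised with RMA per the submitters' processing notes. No version of RMA is given there. Array medians differ, so whether the authors' RMA included quantile normalization across these arrays is not known. Of 35557 probe sets, 21789 had 1 gene symbol, 1621 several and 12147 none. Symbols were updated by Entrez identifier for 21698 of them (RefSeq, GRCm38.p6). The probe set with the highest mean was kept for each of 19938 genes, and genes above the 25th percentile of their array on at least 3 arrays were tested (17571, with 2367 removed).

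The tests used limma 3.58.1 in R 4.3.3 with 1 mean per group over 35 arrays, moderated variances, two-sided tests and Benjamini-Hochberg adjustment over all genes tested, calling a gene at 0.05. Every adjusted p comes from limma. The 3 main comparisons were the XY germ step, that step minus the XX germ step, and that step minus the XY supporting step. Calls for the XX germ step, the XY germ step from TS13 to TS24 and the XY supporting step were made the same way and are given beside them. The median SE of the XY germ step was 0.211. The number of arrays limits the precision, and low values approach background. The procedure was tested on simulated data. The alternatives were quantile normalization, median centring, other filters, another probe set rule, other sets of arrays, array weights, the replicate number as a block and leaving out each array.

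The members, the 34 gene lists and the tests were chosen with earlier results of these data known. Genes were named by a rule: the 4 markers, the 15 largest rises and falls called on both scales without overlap of arrays, up to 6 called members per list (with up to 4 of the highest where at most 2 were called), and the 10 largest differences each way from the XX step. Tdrd5, Tdrd9, Nanos3, Stra8, Piwil2, Cdkn1b, Nodal, Nanog, Sox2, Tfap2c, Zfp42, Mki67, Cdk1, Tet2, Aldh1a2, Rb1, Tgif1, Pmaip1, Ier3, Rhox8 and Mfsd1, and the sort markers Dazl and Wt1, were named after their values were seen. Promoter sequences are RefSeq's, for the first-listed start of each gene, and 13783 of the genes tested matched.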

Additional observations from a re-analysis of the deposited data

Results flagged for a closer look

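For 29 of the genes named, the step from TS24 to TS34 differed between XY and XX germ cells by limma's test of the difference itself, 19 with the higher step in XY and 10 with the lower. In XY the step was higher by 3.26 (log2) for Nanos2, 2.56 for Morc1, 2.22 for Armcx4, 2.18 for Cers6, 2.17 for Ptgr1, 2.04 for the ubiquitin hydrolase gene Uchl1, 1.98 for Nxf2, 1.95 for Klf12, 1.93 for Piwil4 and 1.93 for Ogt. It was higher by 1.75 for Gm1141, 1.63 for Usp26, 1.61 for Xkrx, 1.58 for Hesx1, 1.55 for Cbr3, 1.43 for Tdrd1 and 1.38 for Bnc2. The pyruvate kinase gene Pkm (1.38) and the imprinted gene Impact (1.24) were flagged too, although in XY they differed by 0.02 and 0.06 and were not called, while in XX they fell by 1.36 and 1.18.

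The XY step was the lower for Shoc1 (-1.24), Nudt19 (-1.28), Ap5m1 (-1.29), Plxdc2 (-1.33), Pde8a (-1.39), Muc19 (-1.40), Emc7 (-1.65), Tex101 (-1.68), Zdhhc2 (-1.77) and Ugt8a (-2.78). After quantile normalization 28 of the 29 were still called, and Klf12 was not (adjusted p = 0.0509). Single arrays weighed more: 21 of the 29 lost this call in at least 1 of the 11 fits that left out 1 germ cell array, each of them in a fit without 1 XX array. Nanos2, Morc1, Nxf2, Piwil4, Ogt, Ptgr1, Zdhhc2 and Ugt8a kept it in all 11. Without XX TS24 replicate 2, Klf12 stood at 1.16 (adjusted p = 0.477) and Tex101 at -1.54 (adjusted p = 0.0535). Shoc1, a meiotic recombination gene, lost the call in 8 fits, with -0.90 (adjusted p = 0.287) without XX TS34 replicate 3. Plxdc2 lost it in 10, Impact in 8, Ap5m1 and Nudt19 in 7 each, Klf12, Bnc2 and Cbr3 in 6 each, Tdrd1, Xkrx and Pde8a in 4 each and Muc19 in 3, and Armcx4, Cers6, Uchl1, Gm1141, Usp26, Hesx1, Pkm, Emc7 and Tex101 in 1 each.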

How the results depend on the processing

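Of the 79 named genes called in the XY step, 0 changed direction under any alternative, and 48 kept their call in each of the 6 fits that left out 1 array. The calls lost numbered 2 after quantile normalization, 0 after median centring, 35 with all 36 arrays and 27 without TS34 replicate 1. In the XY step, the genes called higher were 303 after quantile normalization, 273 after median centring and 309 with array weights. With all 36 arrays, 202 were called, 88 higher and 114 lower. Quantile normalization without TS34 replicate 1, added after seeing the data, gave 292 calls, of which 124 were lower. Leaving out 1 array gave 243 to 530 calls, 82 to 152 higher and 91 to 386 lower.

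For the XY step minus the XX step, 309 were called after quantile normalization, 130 of them lower (118 lower after median centring), and 470 with array weights, 418 higher. Leaving out 1 array gave 60 to 436 calls, 37 to 381 higher and 23 to 87 lower. For the germ step minus the supporting step, the lower calls were 96 after quantile normalization and 105 after median centring. All 36 arrays gave 66 calls (54 higher, 12 lower), the 12 arrays compared alone gave 269 (169 and 100), and array weights gave 558 (469 and 89). Quantile normalization without TS34 replicate 1 gave 63 higher. Leaving out 1 array gave 103 to 206 calls, 62 to 118 higher and 14 to 88 lower.

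The replicate numbers did not pair the samples: same-numbered arrays deviated together at r of -0.26, -0.16 and -0.04. With the replicate number as a replicate block, 495 genes were called in the XY step, 471 of them shared with the fit without it, and 105 in the XY step minus the XX step, 57 of them higher. With that block XX TS34 replicate 3 had no same-numbered XX TS24 array in the fit, and so did not contribute to the difference of steps. The median difference of steps was -0.03 both with the block and with that array left out (79 calls), against 0.05 in the main fit. The count of 105 thus mixes the block with the loss of an array. The part of each, and the cause of the other differences, was not tested.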
